A study of Saccharomyces cerevisiae with 12 samples.

Results

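Gene expression in budding yeast libraries labelled snf2 was set directly against that in libraries labelled cyc8, across every nuclear gene of the deposited count table. The members are the 7083 nuclear genes left of 7150 after 55 mitochondrial and 12 ribosomal RNA genes were taken out. Of these, 6152 had enough counts to be tested, and 301 had no count in any of the 5 libraries compared. All 12 libraries of the series hold ribosomal RNA-depleted RNA of Saccharomyces cerevisiae grown in glucose-rich YPD at 30 °C and taken in log phase. The libraries labelled snf2 (n = 2) came from FY2083, a MATa strain with his3del200, ura3del0, trp1-del63, lys2del0, met15del0 and snf2::LEU2. Those labelled cyc8 (n = 3) came from YAFTCD4, which is BY4741 (Mat a, his3del1, leu2del0, met15del0, ura3del0) with cyc8::KAN. Beside them stand YDB1.7, the FY2083 strain with cyc8::URA3 added (cyc8 snf2, n = 4), and BY4741 itself (wt, n = 3). The snf2 and cyc8 groups therefore also differ in strain, though the series describes both backgrounds as derived from S288C. A response to the snf2 label and an effect of the strain cannot be told apart here. The labels do not say how many clones or cultures gave the libraries, so p-values measure the spread between libraries, which may be technical.

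Snf2 is the ATPase of Swi-Snf, a complex that slides and evicts nucleosomes and is brought to promoters by activators. Cyc8 (also called Ssn6) forms a corepressor with Tup1 that has no DNA contact of its own and is recruited by repressors such as Mig1, Rox1, Nrg1 and Crt1. Cells without Cyc8 are known for clumping and for high levels of glucose-repressed, hypoxic and DNA damage genes, and many of the same promoters are known to need Swi-Snf for full activity. A head-to-head comparison of the mutants ranks genes by the distance between these states.

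The transcripts of the mutated genes were examined first. SNF2 had 66.6 and 65.3 CPM (counts scaled to library size by TMM) in the snf2 libraries, against 73.2, 76.4 and 89.2 CPM in the cyc8 libraries. CYC8 had 64.9 and 58.2 CPM in snf2 libraries and 63.3, 60.5 and 54.1 CPM in cyc8 libraries. Neither transcript was lost where its gene is labelled as disrupted, and the labels do not say what remains of each disrupted gene, so the groups go by their labels. Auxotrophic markers told the strains apart. LEU2, which marks the snf2 disruption, had 468 and 498 CPM in snf2 libraries, against 3, 1 and 2 counts in the cyc8 libraries. LYS2, of lysine synthesis, had 0.175 and 0.154 CPM in snf2 libraries, against 219.5, 225 and 247 CPM in cyc8 libraries. HIS3, of histidine synthesis, had 0.0698 and 0.0768 CPM in snf2 libraries, against 87.5, 86.8 and 63.5 CPM in cyc8 libraries. TRP1, labelled as a mutant allele in FY2083 alone, was kept in both, with 47 and 48 CPM in snf2 and 52.9, 58.3 and 50.1 CPM in cyc8 libraries. LEU2 and LYS2 follow the labelled genotypes. HIS3 is labelled as a mutant allele in both strains, his3del200 in FY2083 and his3del1 in BY4741, and the labels do not say how much each allele removes. These marker genes stay in the counts of called genes given here, LEU2 as higher and LYS2 and HIS3 as lower, and no p is read from them.

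The 5 libraries held between 20499617 and 27230568 nuclear and mitochondrial counts, and a count of 0 allows a level of up to 0.105 to 0.172 CPM in them (3 counts, counting error only). The Pearson correlation of log2 CPM between libraries was 0.9946 to 0.9977 within a group and 0.8947 to 0.901 between the groups. Noncoding genes took 17.48 and 16.87% of the counts in the snf2 libraries, against 13.46, 14.21 and 10.77% in the cyc8 libraries, with cyc8 replicate 3 the lowest. TMM factors were 1.207 and 1.216 in snf2 libraries, against 0.853, 0.855 and 1.00 in cyc8 libraries.

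The mutant states were set apart mainly by genes that were low in snf2 and high in cyc8. At an adjusted p below 0.05 and a difference of at least 2-fold in edgeR's quasi-likelihood test, 669 genes were lower in snf2 (10.9% of those tested) and 208 were higher (3.38%). Together the called genes made up 14.3% of those tested, and 76.3% of them were lower. The differences downward were also the larger ones. The median fold was 4.13 among the lower genes and 2.68 among the higher ones, and 215 genes were at least 8-fold lower while 21 were at least 8-fold higher. The lower genes held 6.58 and 6.62% of the nuclear counts in the snf2 libraries, against 23.7, 22.1 and 22.9% in the cyc8 libraries. The higher genes held 2.86 and 2.89% in snf2 libraries, against 0.724, 0.73 and 0.816% in cyc8 libraries. In 4393 genes (71.4%) the libraries of the groups did not overlap. Among called genes this held for 668 of the 669 lower and all 208 higher. It was also a condition for naming the highest and lowest genes, so its mention for a named gene adds no support to a call. For 4339 genes (70.5%) the 95% interval of the difference lay wholly within 2-fold in either direction. The split depends on the fold asked and on the scaling. With no minimum fold, 1525 genes were higher and 1470 lower at the same adjusted p, so the excess of lower genes lies among differences of 2-fold or more. With upper-quartile scaling, which moved the median log2 fold change of all genes to 0.23 from the 0.05 of TMM, 583 genes were lower and 325 higher, so that 64.2% of the called genes were lower.

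**Figure D1:**
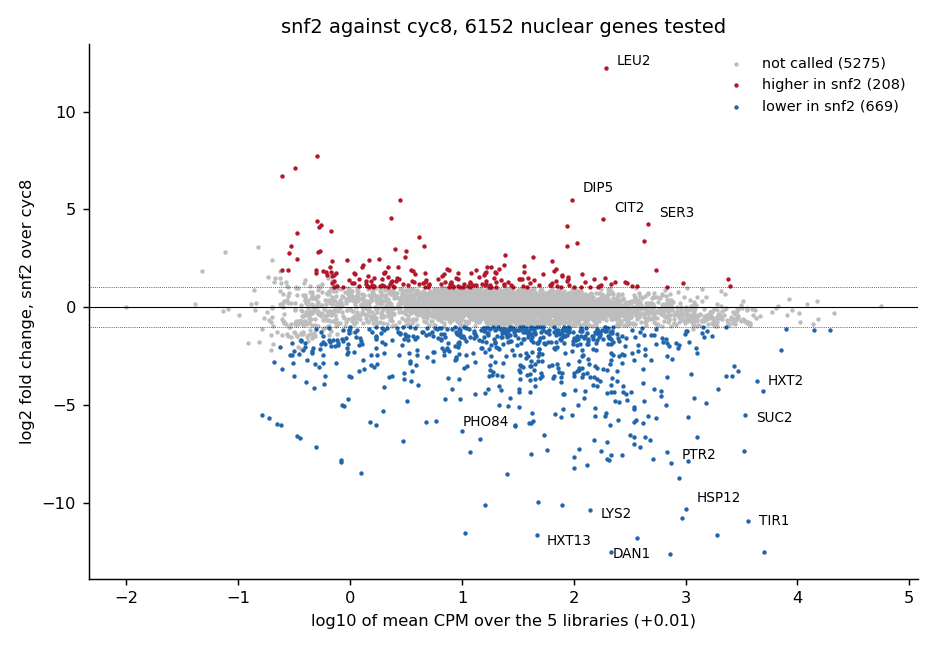
Log2 fold change of snf2 over cyc8 (vertical axis) against the mean level over the 5 libraries (horizontal axis, log10 of CPM), 1 point per tested nuclear gene, with dotted lines at 2-fold. The 669 genes called lower in snf2 (blue) reach a log2 fold change of -12.66 at DAN1, while apart from the marker LEU2 the best expressed of the 208 genes called higher (red) reach 5.49 at DIP5.

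Cell wall genes and the wall mannoproteins of anaerobic cells were the most widely separated. All 5 flocculin genes, which encode the adhesins that make yeast cells clump, were lower in snf2, with a median log2 fold change of -5.63 beside 0.05 over all tested genes. FLO1 (chromosome I, 203403 to 208016), the dominant flocculin, had 6.63 and 7.57 CPM in snf2 libraries, against 799, 686 and 680.4 CPM in cyc8 libraries (log2 fold change -6.67 ± 0.15, adjusted p = 5.04e-12). FLO11, an adhesin of pseudohyphal and biofilm growth, had 2.34 and 2.8 CPM in snf2 libraries, against 162, 115 and 106 CPM in cyc8 libraries (log2 fold change -5.63 ± 0.26, adjusted p = 9.58e-09). Every cyc8 library lay far above both snf2 libraries. All 5 genes have more than 10% of their 50-base words repeated elsewhere in the genome, so counts of FLO1, FLO5 and FLO9 may be split among near copies. In bulk RNA, fewer cells with a transcript and less of it per cell cannot be told apart.

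All 6 DAN and TIR genes tested were lower in snf2, with a median log2 fold change of -7.79. They encode mannoproteins that replace the aerobic wall proteins when oxygen is short. DAN1 (chromosome X, 708704 to 709885) had 0.14 and 0.23 CPM in snf2 libraries, against 1406, 1161 and 1092 CPM in cyc8 libraries (log2 fold change -12.66 ± 0.93, adjusted p = 1.45e-08). TIR1 had 3.28 and 2.77 CPM in snf2 libraries, against 6495, 6140.3 and 5386 CPM in cyc8 libraries (log2 fold change -10.95 ± 0.16, adjusted p = 2.50e-13). DAN1 was near the counting limit in snf2 while TIR1 was not. The other 4 members had log2 fold changes of -7.81, -7.78, -7.59 and -1.79 for TIR4, TIR2, TIR3 and DAN4.

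Of the PAU genes, a large family of small, mostly subtelomeric wall proteins, 14 of 18 tested were lower and none higher (median log2 fold change -3.85). PAU24 had 2.09 and 0.653 CPM in snf2 libraries, against 9787, 8758 and 6470.0 CPM in cyc8 libraries (log2 fold change -12.54 ± 0.39, adjusted p = 1.35e-09). Without snf2 replicate 1 its log2 fold change was -13.67. PAU5 had 2.86 and 3.96 CPM in snf2 libraries, against 1594, 1438 and 1367 CPM in cyc8 libraries (log2 fold change -8.75 ± 0.18, adjusted p = 2.57e-12). The family was not uniform, since PAU2, PAU6, PAU16 and PAU23 did not pass the test, at log2 fold changes of -0.45, -0.54, -1.84 and -0.13. Only 4 of the 18 had at most 10% repeated words, and 3 of these 4 were lower.

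Hypoxic genes under the heme-dependent repressor Rox1 were lower in 6 of 9 cases, with a median log2 fold change of -2.47. ANB1 (chromosome X, 524797 to 525504), the hypoxic form of the translation factor eIF5A, is shown with the 300 bases before the start of its gene model (chrX:525505-525804, minus strand, build R64, RefSeq genome). Capitals mark ATTGTT, the core of the Rox1 site, searched on both strands; 7 of the 9 windows of the list hold it, against 32.9% of all tested genes. It stands here because 4 matches lie within 300 bases of a gene that separated the groups.
ANB1: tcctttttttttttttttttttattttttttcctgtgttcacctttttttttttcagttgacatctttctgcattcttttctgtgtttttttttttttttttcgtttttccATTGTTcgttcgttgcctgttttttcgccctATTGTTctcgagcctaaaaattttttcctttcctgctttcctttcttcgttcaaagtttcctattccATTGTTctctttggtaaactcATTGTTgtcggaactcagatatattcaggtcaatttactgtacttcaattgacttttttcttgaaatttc
ANB1 had 15.1 and 16.2 CPM in snf2 libraries, against 811, 854 and 617 CPM in cyc8 libraries (log2 fold change -5.60 ± 0.16, adjusted p = 1.07e-10). HEM13, of heme synthesis, had 76.9 and 77.5 CPM in snf2 libraries, against 2062, 1754 and 1920.3 CPM in cyc8 libraries (log2 fold change -4.63 ± 0.28, adjusted p = 1.01e-06). TIP1, a wall mannoprotein induced by cold, had 20.2 and 21.6 CPM in snf2 libraries, against 2408, 2032 and 1830.1 CPM in cyc8 libraries (log2 fold change -6.64 ± 0.22, adjusted p = 3.94e-09). In each of these genes all cyc8 libraries stood above all snf2 libraries. OLE1, HMG2 and ROX1 itself were not called, at 0.50, -0.13 and -0.73. The sterol genes lower in snf2 belong to uptake and its control as well as to the oxygen-using steps. UPC2, an activator of sterol and anaerobic genes, had 21.5 and 20.2 CPM in snf2 libraries and 175, 176 and 201 CPM in cyc8 libraries (log2 fold change -3.14 ± 0.12). AUS1 and PDR11, which take up sterol, had log2 fold changes of -2.43 and -2.95. ERG3, ERG5, ERG11, ERG25 and ERG28 were also lower, and 19 of the 28 genes in the list were not called.

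Sugar uptake and the use of sugars other than glucose came next. Of 15 hexose transporter genes tested, 12 were lower in snf2 and none higher (median log2 fold change -3.80). The 300 bases before HXT4 (chrVIII:289157-289456, minus strand, build R64, RefSeq genome) are shown because HXT4 moved over a wide range at a high level. Capitals mark CCCCNC on either strand, the core of the site of the glucose repressor Mig1, with overlapping matches run together.
HXT4: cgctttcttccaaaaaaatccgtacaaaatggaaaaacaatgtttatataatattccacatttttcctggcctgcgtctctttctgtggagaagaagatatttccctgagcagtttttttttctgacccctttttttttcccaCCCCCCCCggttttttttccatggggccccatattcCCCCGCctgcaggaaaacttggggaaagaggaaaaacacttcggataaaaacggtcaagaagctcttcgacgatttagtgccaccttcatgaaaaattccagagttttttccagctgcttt
HXT4 (chromosome VIII, 286947 to 289156), a high-affinity transporter, had 34.9 and 30.4 CPM in snf2 libraries, against 5378, 5414 and 5602 CPM in cyc8 libraries (log2 fold change -7.38 ± 0.36, adjusted p = 4.96e-07). HXT2, also of high affinity, had 513 and 482 CPM in snf2 libraries, against 6914, 7037 and 6772 CPM in cyc8 libraries (log2 fold change -3.80 ± 0.11, adjusted p = 4.51e-11). Both genes were expressed in snf2, at levels well above the counting limit, and both were far higher in every cyc8 library. HXT17 had 0.14 and 0.192 CPM in snf2 libraries, against 670.4, 588 and 573 CPM in cyc8 libraries (log2 fold change -11.81 ± 0.54). HXT13 had 2 and 1 counts in snf2 libraries, against 6628, 8793 and 7097 counts in cyc8 libraries. These minor transporters were close to absent in snf2, and part of their sequence is shared with sister genes. HXT1 and HXT3, the low-affinity transporters of glucose-grown cells, were also lower, at log2 fold changes of -1.91 and -3.01. The call of HXT1 was lost without either snf2 library. HXT10, HXT11 and HXT12 were not called.

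Of 11 genes for sucrose, maltose and isomaltose use, 10 were lower in snf2 (median log2 fold change -3.34). SUC2 (chromosome IX, 37316 to 39203), the secreted invertase that splits sucrose, had 124 and 120.2 CPM in snf2 libraries, against 6006, 5428 and 5365 CPM in cyc8 libraries (log2 fold change -5.52 ± 0.11, adjusted p = 2.21e-12). The isomaltase genes IMA1 and IMA5 had log2 fold changes of -5.67 and -3.68, and the maltase gene MAL12 one of -6.80. The maltose activator genes MAL13 and MAL33 differed less, at -1.19 and -1.46, and MPH3 was not called (-0.14). For growth on acids and ethanol the picture was partial. In gluconeogenesis, the glyoxylate cycle and acid uptake 8 of 21 genes were lower (38.1%, beside 10.9% of all tested genes). The lactate permease JEN1 led them, at 9.6 and 8.53 CPM in snf2 libraries, against 71.3, 70.5 and 64.9 CPM in cyc8 libraries (log2 fold change -2.92 ± 0.14). The enzyme genes PCK1, MLS1 and FBP1 were among the lower ones, at -1.92, -1.19 and -1.07. The calls of MLS1 and FBP1 were lost without snf2 replicate 1 or cyc8 replicate 2, and that of FBP1 also without snf2 replicate 2. ICL1, MDH2 and ADH2 were not called, at 0.10, -0.11 and 0.09. ADR1, an activator of ADH2 and peroxisomal genes, was lower, at -1.65.

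**Figure D2:**
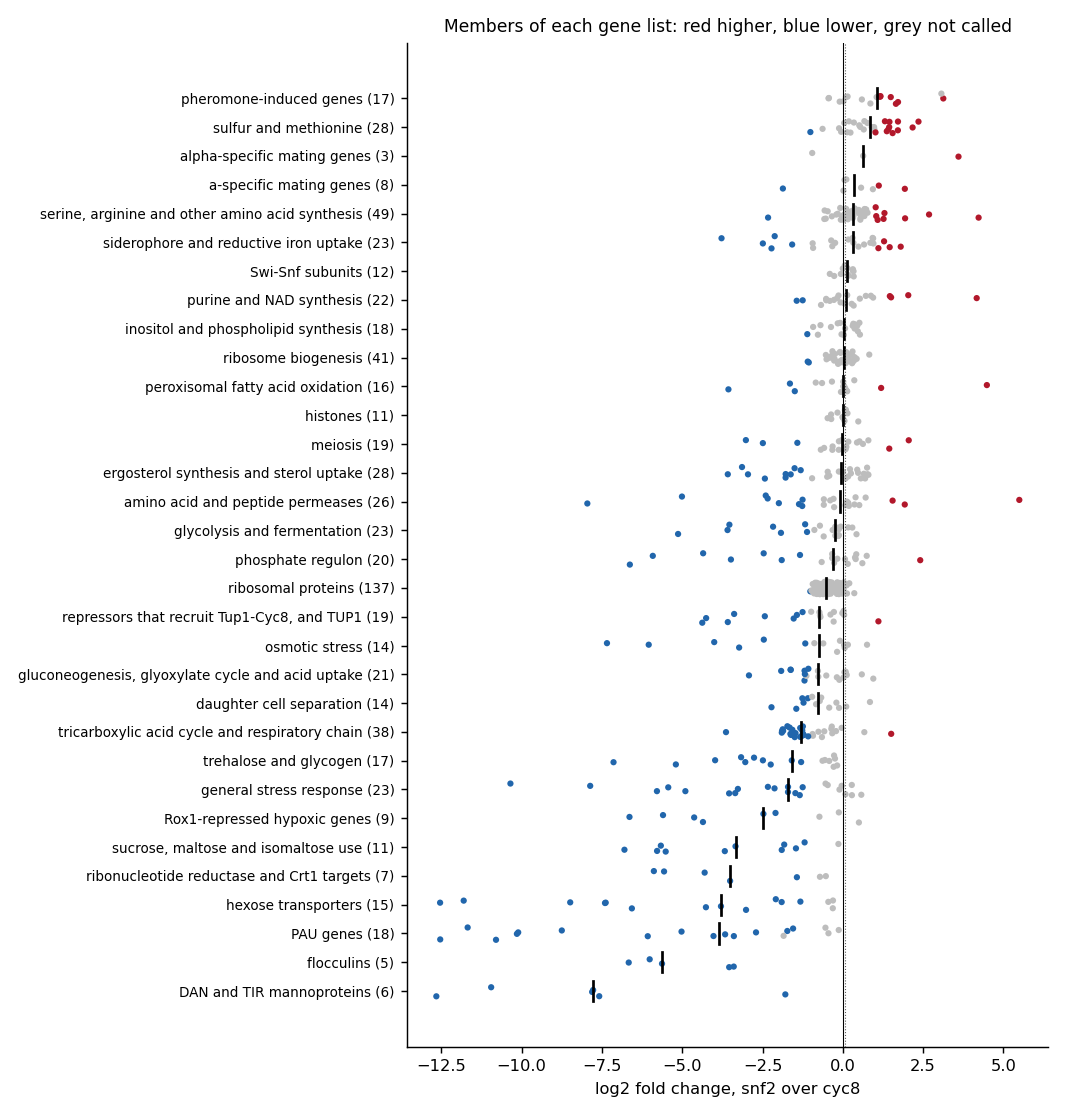
Log2 fold change of snf2 over cyc8 (horizontal axis) for every tested member of each gene list, 1 point per gene and a black bar at the list's median, with the number tested in brackets and a dotted line at the median of all tested genes. The lists at the bottom (DAN and TIR -7.79, flocculins -5.63, PAU -3.85, hexose transporters -3.80) lie far to the lower side, and pheromone-induced and sulfur genes at the top lie at 1.05 and 0.83.

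Storage carbohydrate and stress genes were lower in snf2 as well. Of 17 trehalose and glycogen genes, 10 were lower and none higher (median log2 fold change -1.59). GAC1, which targets protein phosphatase to glycogen synthase, had 4.47 and 4.76 CPM in snf2 libraries, against 602, 638 and 716 CPM in cyc8 libraries (log2 fold change -7.14 ± 0.49, adjusted p = 3.32e-06). GSY2, the main glycogen synthase, had 34.2 and 28.5 CPM in snf2 libraries, against 263, 299 and 285 CPM in cyc8 libraries (log2 fold change -3.17 ± 0.29, adjusted p = 1.51e-05). Glycogen phosphorylase GPH1, GSY1, GDB1 and GLC3 had log2 fold changes of -5.20, -3.98, -2.77 and -2.49, while the trehalose synthase subunits TPS2 and TSL1 had -1.59 and -2.25 and TPS1 was not called (-0.25). The call of TPS2 was lost without snf2 replicate 2. For GSY2 the wt mean was 286 CPM, close to the cyc8 libraries.

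Of 23 general stress genes, 15 were lower and none higher (median log2 fold change -1.71). The window before HSP12 (chrVI:106530-106829, plus strand, build R64, RefSeq genome) is shown because HSP12 was the most widely separated gene of the list. Capitals mark AGGGG on either strand, the stress response element bound by Msn2 and Msn4.
HSP12: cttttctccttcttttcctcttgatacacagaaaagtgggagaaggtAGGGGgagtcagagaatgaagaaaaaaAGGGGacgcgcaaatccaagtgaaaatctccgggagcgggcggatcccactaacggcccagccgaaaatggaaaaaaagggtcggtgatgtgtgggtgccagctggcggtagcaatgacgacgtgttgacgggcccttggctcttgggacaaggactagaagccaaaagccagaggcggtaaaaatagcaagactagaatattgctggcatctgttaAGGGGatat
HSP12 (chromosome VI, 106830 to 107790), a small membrane heat shock protein, had 1.47 and 1.08 CPM in snf2 libraries, against 1748, 1659 and 1618 CPM in cyc8 libraries (log2 fold change -10.35 ± 0.43, adjusted p = 1.57e-08). The chaperone HSP26 had 8.31 and 6.61 CPM in snf2 libraries, against 2035, 1668 and 1533 CPM in cyc8 libraries (log2 fold change -7.87 ± 0.31, adjusted p = 4.54e-08). Both were low in snf2 and high in all 3 cyc8 libraries. The catalase gene CTT1 and the wall gene SPI1 had log2 fold changes of -3.35 and -3.27. Of the other heat shock proteins in the list, HSP30 and HSP42 were lower (-5.79 and -1.34), and HSP104, SSA4 and HSP78 were not called (-0.04, 0.28 and 0.57). The call of HSP42 was lost without either snf2 library or without cyc8 replicate 2 or 3. AGGGG occurred in 76.5% of the windows of trehalose and glycogen genes and in 52.2% of those of the stress genes, against 21.6% of all 6152 windows.

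In osmotic stress, 6 of 14 genes were lower (42.9%, beside 10.9% of all tested genes, median log2 fold change -0.75). ENA1, the sodium pump, had 1.85 and 1.73 CPM in snf2 libraries, against 293, 307 and 276 CPM in cyc8 libraries (log2 fold change -7.34 ± 0.21, adjusted p = 1.81e-11). STL1, a glycerol importer, had 0.733 and 0.73 CPM in snf2 libraries, against 57.2, 44.8 and 44.2 CPM in cyc8 libraries (log2 fold change -6.05 ± 0.28, adjusted p = 2.59e-10). Glycerol synthesis followed with GPD1 at -2.46 and GPP2 at -3.23, while GPP1 (-0.18) and the repressor SKO1 (0.04) were not called. DAK2, a dihydroxyacetone kinase outside the list, had no count in the snf2 libraries, against 434, 343 and 291 counts in the cyc8 libraries, and was at least 160-fold lower (floor of 3 counts per library).

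Ribonucleotide reductase genes and other targets of the repressor Crt1 (RFX1) were lower for 5 of 7 members (median log2 fold change -3.51). RNR3 (chromosome IX, 237955 to 241732), a large subunit induced by DNA damage, had 9.18 and 10.3 CPM in snf2 libraries, against 639.9, 519 and 564 CPM in cyc8 libraries (log2 fold change -5.88 ± 0.14, adjusted p = 8.50e-12). The small subunit RNR2 had 395 and 401 CPM in snf2 libraries, against 8656, 7705 and 7218 CPM in cyc8 libraries (log2 fold change -4.30 ± 0.10, adjusted p = 5.58e-12). HUG1, an inhibitor of the enzyme, had a log2 fold change of -5.57. The groups were wide apart for all of these, whereas RNR1, the large subunit of cycling cells, and the checkpoint kinase DUN1 were not called (-0.71 and -0.53).

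In a list of repressors that bring Tup1-Cyc8 to DNA, together with TUP1, 8 of the 19 genes were themselves lower in snf2 and 1 was higher (median log2 fold change -0.73). Those shares were 42.1 and 5.26%, beside 10.9 and 3.38% of all tested genes. NRG1, a repressor of glucose-repressed and filamentous growth genes, had 16.2 and 14.6 CPM in snf2 libraries, against 356, 286 and 318 CPM in cyc8 libraries (log2 fold change -4.38 ± 0.19, adjusted p = 1.06e-08). CIN5, SUT1, PHD1 and NRG2 had log2 fold changes of -4.26, -3.58, -3.39 and -2.43. AFT1, the iron regulator, was the higher one (1.11). MIG1, MIG2, ROX1, MOT3 and RGT1 were not called, and TUP1 differed little, with 169 and 176 CPM in snf2 libraries and 245, 219 and 213 CPM in cyc8 libraries (log2 fold change -0.39 ± 0.07).

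Respiratory genes formed the broadest moderate difference. Of 38 genes of the tricarboxylic acid cycle and respiratory chain, 26 were lower in snf2 and 1 higher (median log2 fold change -1.29). CYC1, iso-1-cytochrome c, had 5.86 and 6.91 CPM in snf2 libraries, against 87.7, 79.1 and 71.9 CPM in cyc8 libraries (log2 fold change -3.64 ± 0.22, adjusted p = 1.78e-07). COR1 of complex III had 77.7 and 74.8 CPM in snf2 libraries, against 318, 258 and 275 CPM in cyc8 libraries (log2 fold change -1.89 ± 0.13, adjusted p = 1.67e-07). Lower members spanned succinate dehydrogenase (SDH1 to SDH4), complex III, complex IV and the ATP synthase genes ATP1, ATP2 and ATP3. The 1 higher member was IDH1, a subunit of isocitrate dehydrogenase (1.50). In glycolysis and fermentation 7 of 23 genes were lower (30.4%, beside 10.9% of all tested genes). HXK1, the glucose-repressed hexokinase, had 18.1 and 14 CPM in snf2 libraries, against 568, 575 and 548 CPM in cyc8 libraries (log2 fold change -5.13 ± 0.27). TDH1, PDC5 and ENO1 had -3.53, -3.59 and -2.17, while HXK2, PGI1, PFK1 and ENO2 were not called. Ribosomal protein genes had a median log2 fold change of -0.51, with 113 of 137 bounded within 2-fold and 1 lower. The number lower was 12 without cyc8 replicate 3, 4 without snf2 replicate 1, 3 without snf2 replicate 2 and 0 without cyc8 replicate 2 or with upper-quartile scaling. In ribosome biogenesis 34 of 41 genes lay within 2-fold and 2, NOP1 and GAR1, were lower.

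Genes higher in snf2 were fewer, and 30 of the 208 are noncoding or absent from the RefSeq table. After the marker LEU2, the highest by fold among genes averaging 10 CPM or more were DIP5, CIT2, SER3, IMD2, DLD3 and CAR1. CIT2 is the peroxisomal citrate synthase and the classic target of the retrograde pathway, in which Rtg1 and Rtg3 answer to the state of mitochondria. Its 300 upstream bases (chrIII:122392-122691, minus strand, build R64, RefSeq genome) are shown with GTCAC, the R-box of Rtg1 and Rtg3, in capitals on either strand; it occurs in 29.2% of all windows.
CIT2: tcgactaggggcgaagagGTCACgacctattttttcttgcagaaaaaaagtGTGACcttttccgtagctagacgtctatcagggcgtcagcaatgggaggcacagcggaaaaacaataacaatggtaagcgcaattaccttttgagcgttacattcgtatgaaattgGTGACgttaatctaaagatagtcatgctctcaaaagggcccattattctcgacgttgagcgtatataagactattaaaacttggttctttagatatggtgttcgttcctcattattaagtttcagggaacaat
CIT2 (chromosome III, 120666 to 122391) had 416 and 440.3 CPM in snf2 libraries, against 18.1, 19.8 and 19.4 CPM in cyc8 libraries (log2 fold change 4.48 ± 0.17, adjusted p = 4.93e-10). DLD3, which oxidises 2-hydroxyglutarate and is a retrograde target, had 939.6 and 930.1 CPM in snf2 libraries, against 97, 83.7 and 92.9 CPM in cyc8 libraries (log2 fold change 3.36 ± 0.11, adjusted p = 2.16e-11). All snf2 libraries were above all cyc8 libraries in both. In a list of 13 retrograde genes drawn up after these values were seen, PYC1, IDH1 and OAC1 were also higher (1.25, 1.50 and 1.42), so that 5 were higher in all, while 2, the aconitase gene ACO1 and the transporter gene ATO3, were lower (-1.24 and -1.03, with ATO3 not called without cyc8 replicate 1). Those 5 and 2 genes are 38.5 and 15.4% of the list, beside 3.38% higher and 10.9% lower among all tested genes. The regulators RTG1, RTG2, RTG3 and MKS1 were not called.

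Several arginine synthesis genes and the arginase gene were higher in snf2. ARG1, argininosuccinate synthase, had 52.3 and 47 CPM in snf2 libraries, against 5.95, 9.06 and 8.01 CPM in cyc8 libraries (log2 fold change 2.68 ± 0.16, adjusted p = 1.15e-08). CAR1, the arginase, had 235 and 223 CPM in snf2 libraries, against 21.7, 27.1 and 21.5 CPM in cyc8 libraries (log2 fold change 3.29 ± 0.16, adjusted p = 2.84e-09). The groups did not overlap in either gene. ARG3, ARG4 and CPA1 were also higher, at 1.30, 1.94 and 1.04, while CAR2, the next enzyme of breakdown, was not called (-0.76). The call of CPA1 was lost without snf2 replicate 1 or cyc8 replicate 2 or 3. In a list of 9 genes of arginine use and its control drawn up after the values were seen, CAR1 alone was higher, none was lower and 6 lay within 2-fold. Over 49 genes of amino acid synthesis 8 were higher (16.3%) and 1 lower (2.04%), beside 3.38 and 10.9% of all tested genes, and 37 lay within 2-fold. The lower one was GDH1, a glutamate dehydrogenase, with 367 and 371 CPM in snf2 libraries and 1903, 1885 and 1771 CPM in cyc8 libraries (log2 fold change -2.33 ± 0.21). The number higher was 7 without cyc8 replicate 1 or 2 and 6 without cyc8 replicate 3 or with RLE scaling. The call of GLN1 (1.02) was lost without cyc8 replicate 1, and that of SER33 (1.08) without cyc8 replicate 3. Without snf2 replicate 1 or 2 the log2 fold change of GLN1 was 0.94 or 1.03. SER3, the first enzyme of serine synthesis, had 1081 and 1072 CPM in snf2 libraries, against 60.6, 57.2 and 54.8 CPM in cyc8 libraries (log2 fold change 4.23 ± 0.30, adjusted p = 1.01e-06). The upstream transcript SRG1, known to hold SER3 down, overlaps 26.6% of the SER3 model on the same strand, so its reads may be counted in part with SER3.

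In sulfur assimilation and methionine synthesis, expression was higher for 11 of the 28 tested (39.3%, beside 3.38% of all tested genes), with 1 lower and a median log2 fold change of 0.83. The window before MET3 (chrX:455842-456141, plus strand, build R64, RefSeq genome) shows CACGTG, bound by Cbf1, in capitals; 42.9% of the windows of this list hold it, against 4.39% of all windows.
MET3: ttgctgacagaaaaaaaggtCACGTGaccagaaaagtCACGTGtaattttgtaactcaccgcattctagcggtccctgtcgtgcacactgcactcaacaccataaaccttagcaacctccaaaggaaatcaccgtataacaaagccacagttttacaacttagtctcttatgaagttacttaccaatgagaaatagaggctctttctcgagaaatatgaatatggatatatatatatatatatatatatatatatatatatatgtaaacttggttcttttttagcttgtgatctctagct
MET3 (chromosome X, 456142 to 457903), ATP sulfurylase, had 212 and 196 CPM in snf2 libraries, against 86.3, 49.4 and 51.1 CPM in cyc8 libraries (log2 fold change 1.71 ± 0.22, adjusted p = 5.66e-05). SUL2, a sulfate permease, had 127 and 119 CPM in snf2 libraries, against 38.5, 17.3 and 16.9 CPM in cyc8 libraries (log2 fold change 2.35 ± 0.29, adjusted p = 4.70e-05). In both genes cyc8 replicate 1 was the highest of its group and still below the snf2 libraries. STR3, MET1, SAM2 and the S-methylmethionine permease MMP1 had log2 fold changes of 2.17, 1.72, 1.45 and 1.55. CBF1 itself was the lower one (-1.01), and SUL1, CYS3 and CYS4 were not called. Both strains are labelled met15del0, and MET17 (MET15) had 0.0349 and 0 CPM in snf2 libraries and 0.114, 0.343 and 0.046 CPM in cyc8 libraries.

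In purine and NAD synthesis 4 of 22 genes were higher (18.2%) and 2 lower (9.09%), beside 3.38 and 10.9% of all tested genes. Of the 4 higher genes, 3 had at most 10% repeated words. IMD2, an IMP dehydrogenase whose transcription answers to guanine nucleotide levels, had 193 and 204 CPM in snf2 libraries, against 11.8, 10.2 and 11.2 CPM in cyc8 libraries (log2 fold change 4.17 ± 0.24, adjusted p = 6.14e-08). BNA2, which opens NAD synthesis from tryptophan, had 35.3 and 31.6 CPM in snf2 libraries, against 8.93, 8.03 and 7.55 CPM in cyc8 libraries (log2 fold change 2.04 ± 0.20, adjusted p = 1.92e-06). The snf2 libraries were the high ones in both genes. BNA1 and BNA4 followed at 1.46 and 1.50, and ADE17 was lower (-1.44).

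**Figure D3:**
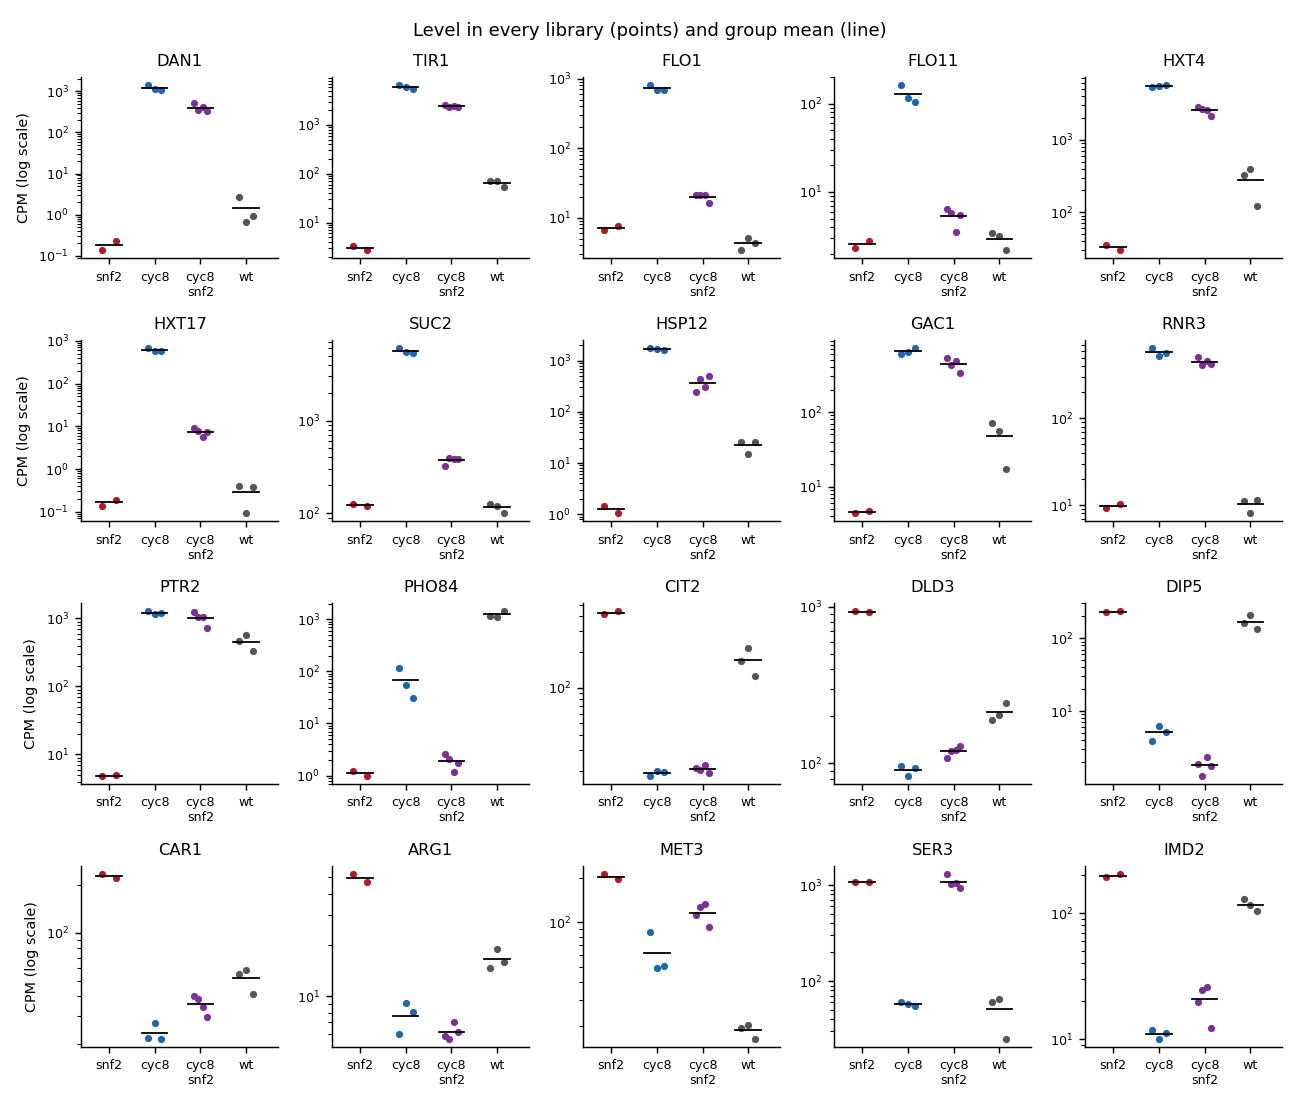
CPM (log scale, a different range in each panel) of 20 genes in each library, with points for libraries and a line at the group mean, in the order snf2, cyc8, cyc8 snf2 and wt. DAN1 to PHO84 are low in both snf2 libraries and high in the 3 cyc8 libraries, and CIT2 to IMD2 show the opposite order.

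Amino acid and peptide permeases went both ways. DIP5, the permease for aspartate and glutamate, had 230.2 and 235 CPM in snf2 libraries, against 3.89, 6.27 and 5.16 CPM in cyc8 libraries (log2 fold change 5.49 ± 0.21, adjusted p = 8.17e-10). PTR2, the transporter of di- and tripeptides, had 4.89 and 4.92 CPM in snf2 libraries, against 1279.7, 1169 and 1208 CPM in cyc8 libraries (log2 fold change -7.96 ± 0.26, adjusted p = 2.60e-09). Each gene was near its low end in one mutant and near its high end in the other, with replicates close together. Of the 26 permease genes and their regulators listed, 3 were higher (11.5%) and 8 lower (30.8%), beside 3.38 and 10.9% of all tested genes. The lower ones included PUT4 and GAP1 at -5.01 and -2.34. CUP9, a repressor of PTR2, was lower too (-1.26).

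Phosphate and iron genes were mixed. Of 20 phosphate-responsive genes, 7 were lower (35%) and 1 higher (5%), beside 10.9 and 3.38% of all tested genes. PHO84 (chromosome XIII, 23886 to 25919), the high-affinity phosphate transporter, had 1.22 and 0.999 CPM in snf2 libraries, against 118, 54.9 and 31.3 CPM in cyc8 libraries (log2 fold change -5.92 ± 0.65, adjusted p = 1.79e-05). The cyc8 libraries spread widely, cyc8 replicate 1 being the highest and replicate 3 the lowest, and both groups lay far below the wt mean of 1235 CPM. Without cyc8 replicate 1 the log2 fold change was -5.27. The row YNCM0001W, antisense to PHO84, went the other way, with 24.3 and 26.5 CPM in snf2 libraries, against 9.67, 10.6 and 10.4 CPM in cyc8 libraries (log2 fold change 1.31). PHO89, a sodium-coupled phosphate transporter, had 5.55 and 5.99 CPM in snf2 libraries, against 717, 567 and 435 CPM in cyc8 libraries (log2 fold change -6.63 ± 0.22). PHM6, of unknown function, was the higher one, with 1.89 and 1.73 CPM in snf2 libraries, against 0.343, 0.386 and 0.276 CPM in cyc8 libraries (log2 fold change 2.41). Among 23 iron uptake genes 5 were lower (21.7%) and 4 higher (17.4%), beside 10.9 and 3.38% of all tested genes. The wall mannoprotein FIT2, which holds siderophores, had 175 and 188 CPM in snf2 libraries, against 653, 1626 and 784 CPM in cyc8 libraries (log2 fold change -2.49 ± 0.37, adjusted p = 4.72e-04), with cyc8 replicate 2 the highest. The siderophore transporters ARN1 and SIT1 were lower as well (-2.22 and -2.12), while TIS11, which degrades mRNAs of iron-using proteins, was higher (1.80). With upper-quartile scaling 8 iron genes were higher, and with RLE scaling 3. The call of FRE1, another of the higher genes (1.46), was lost when any 1 of the 5 libraries was left out.

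Mating genes went both ways. Both strains are labelled as mating type a, and the a-specific receptor gene STE2 had 284 and 284 CPM in snf2 libraries and 162, 139 and 144 CPM in cyc8 libraries (log2 fold change 0.94 ± 0.12, not called). Of 8 a-specific genes 2 were higher, MFA1 and the protease gene BAR1 (1.12 and 1.93), and 1, MFA2, was lower (-1.87). These are 25% higher and 12.5% lower, beside 3.38 and 10.9% of all tested genes. Alpha-specific MF(ALPHA)1 was at or near the counting limit in all 5 libraries, and STE3, the receptor of alpha cells, had 9.32 and 9.14 CPM in snf2 libraries and 0.858, 0.515 and 0.921 CPM in cyc8 libraries (log2 fold change 3.60 ± 0.27). Pheromone-induced genes were higher in 7 of 17 cases (41.2%, beside 3.38% of all tested genes) and lower in none (median log2 fold change 1.05). The number higher was 5 of 18 without snf2 replicate 2 and 6 of 18 without snf2 replicate 1. It was 6 of 17 without cyc8 replicate 2 or 3, with a median of 0.76 without replicate 3. The call of PRM1 was lost in each of these fits, and that of KAR4 without snf2 replicate 2. FUS1, of cell fusion, had 10.9 and 8.68 CPM in snf2 libraries, against 1.03, 1.2 and 1.1 CPM in cyc8 libraries (log2 fold change 3.13 ± 0.33, adjusted p = 2.30e-06). SST2, which damps the pheromone signal, had 27.3 and 27.5 CPM in snf2 libraries, against 8.98, 7.13 and 8.93 CPM in cyc8 libraries (log2 fold change 1.72 ± 0.17, adjusted p = 1.92e-06). For both, the wt means of 11.3 and 68.7 CPM were at or above the snf2 libraries. HO, the mating-type endonuclease gene and a classic Swi-Snf target, had 0.873 and 1.61 CPM in snf2 libraries, against 7.32, 5.41 and 4.7 CPM in cyc8 libraries (log2 fold change -2.22 ± 0.42), beside 32.5 CPM on average in wt.

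In meiosis, 3 of 19 genes were lower (15.8%, beside 10.9% of all tested genes) and 2 higher (10.5%, beside 3.38%). The call of SPR3, a higher one, was lost without either snf2 library. IME1, the master activator of meiosis, had 7.4 and 8.22 CPM in snf2 libraries, against 59.7, 54.4 and 76 CPM in cyc8 libraries (log2 fold change -3.02 ± 0.15, adjusted p = 3.64e-09). IRT1, a noncoding transcript of the IME1 promoter, was also lower, with 5.13 and 4.84 CPM in snf2 libraries, against 42.9, 29 and 35.6 CPM in cyc8 libraries (log2 fold change -2.84 ± 0.17). PWR1, a noncoding transcript opposite the region upstream of FLO11, had 0.175 and 0.0768 CPM in snf2 libraries, against 7.84, 8.67 and 7.18 CPM in cyc8 libraries (log2 fold change -5.89 ± 0.69, adjusted p = 3.38e-07). These 2 noncoding transcripts were low and high in the same libraries as their neighbours. IME2 and NDT80, which act after IME1, were not called (0.17 and 0.09). Of 53 snoRNA genes tested 2 were higher (3.77%) and 1 lower (1.89%), beside 3.38 and 10.9% of all tested genes. Of 76 tRNA genes tested 26 were lower (34.2%, beside 10.9% of all tested genes) and 1, SUP53, was higher (log2 fold change 7.74). Only 1 of the 76 lay within 2-fold. Only 7 had at most 10% repeated words, and 3 of these 7 were lower. The number lower was 17 of 72 without cyc8 replicate 1, 18 of 74 without cyc8 replicate 2 and 32 of 76 without cyc8 replicate 3. The median log2 fold change was -1.08. It was -1.37 over the 98 tested without snf2 replicate 1 and -1.02 over the 99 tested without snf2 replicate 2. The set of tRNA genes tested and the number lower therefore depend on the library left out. The summed tRNA level was only 49.1 and 44.5 CPM in snf2 libraries, against 117, 101 and 69.0 CPM in cyc8 libraries.

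Several groups differed little. All 12 Swi-Snf subunit genes had a difference bounded within 2-fold, with log2 fold changes from -0.41 (RTT102) to 0.34 (ARP9), and none was called. All 11 histone genes were bounded within 2-fold as well, from -0.47 (HTB2) to 0.48 (HTB1). In inositol and phospholipid synthesis 15 of 18 genes lay within 2-fold and INO1 alone was lower (-1.11; -0.96 and not called without cyc8 replicate 2). Some genes differed from wt in both mutants and little between them, though both comparisons with wt share the wt libraries. SFC1, a succinate-fumarate carrier, had 4.33 and 5.18 CPM in snf2 libraries and 3.95, 4.72 and 5.06 CPM in cyc8 libraries, beside 0.228 CPM on average in wt. PHO5, the secreted acid phosphatase, had 4.89 and 4.19 CPM in snf2 libraries and 7.04, 2.92 and 3.36 CPM in cyc8 libraries, beside 75.8 CPM in wt. SFC1 was above and PHO5 below wt in every library of both mutants.

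Called genes were also counted by their distance from the chromosome ends. Of the 189 tested genes within 20 kb of an end, 72 were lower (38.1%) and 20 higher (10.6%), against 10.9 and 3.38% of all tested genes. The lower share was 39.7% in the last 10 kb and 9.6% beyond 100 kb. Families with near copies are concentrated there. Among genes with at most 10% repeated words, 17.2% were lower and 17.2% higher in the last 10 kb (5 of 29 each), and 25.3% lower and 12% higher from 10 to 20 kb. Called genes were found at every level of expression, with 27.5% called below 1 CPM, 9.14% from 10 to 100 CPM and 18.3% above 1000 CPM.

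**Figure D4:**
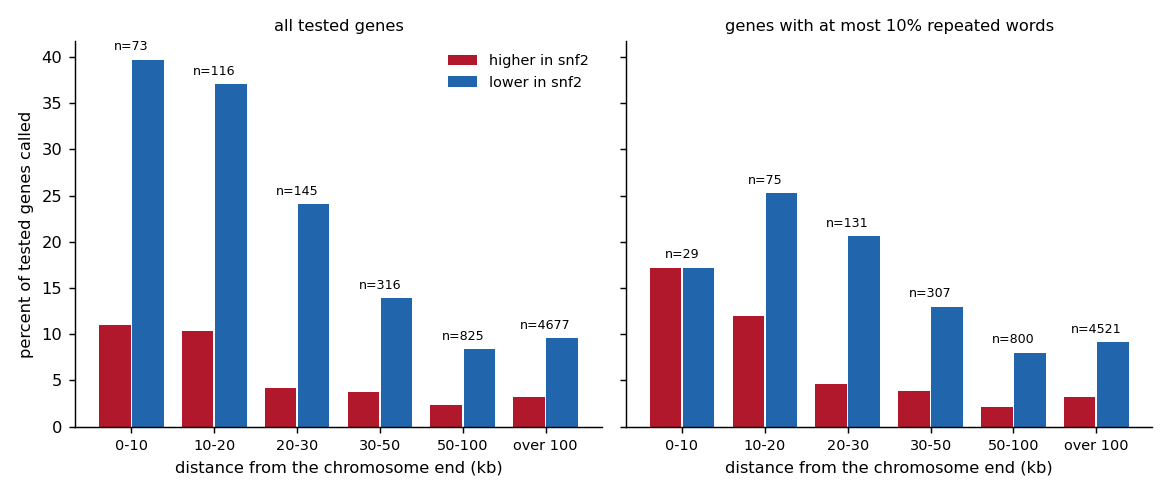
Percent of tested genes called higher (red) or lower (blue) in snf2 by distance from the nearest chromosome end in kb, for all tested genes (left) and for genes with at most 10% repeated words (right), with the number tested above each pair. On the left the lower share is 39.7% in the last 10 kb and 9.6% beyond 100 kb, and both shares stand at 17.2% in the last 10 kb on the right.

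The other groups of the series place these differences. Each called gene was put on a line from its snf2 mean (0) to its cyc8 mean (1) in log2(CPM + 0.5), and the wt and cyc8 snf2 means were placed on the same line. For the 669 genes lower in snf2, the median position was 0.779 for cyc8 snf2 and 0.217 for wt. In 402 of them (60.1%) wt lay nearer snf2 while cyc8 snf2 lay nearer cyc8, and in 48 (7.17%) the reverse held. RNR3 is of the first kind, with means of 448 CPM in cyc8 snf2 and 10.3 CPM in wt. For the 208 genes higher in snf2 the median position was 0.821 for cyc8 snf2 and 0.577 for wt. The wt mean was nearer snf2 in 89 of these genes and nearer cyc8 in 119, and it lay outside the line on the snf2 side in 28 and on the cyc8 side in 50. CIT2 had 20.7 CPM in cyc8 snf2 and 169.6 CPM in wt, and DIP5 had 1.83 CPM in cyc8 snf2 and 166 CPM in wt. In other genes cyc8 snf2 stood with snf2 and wt with cyc8. SER3 had 1079 CPM in cyc8 snf2 and 50.7 CPM in wt, and 36 higher genes (17.3%) had cyc8 snf2 nearer snf2 and wt nearer cyc8.

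**Figure D5:**
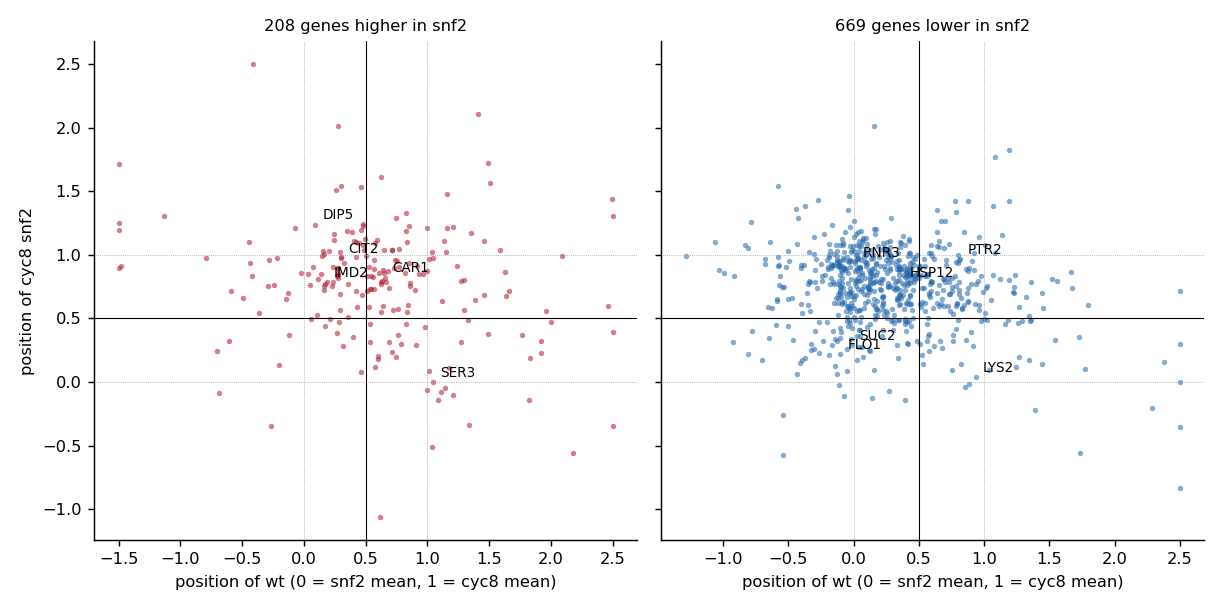
Position of the wt mean (horizontal axis) and of the cyc8 snf2 mean (vertical axis) between the snf2 mean (0) and the cyc8 mean (1) in log2(CPM + 0.5), 1 point per called gene, values beyond -1.5 and 2.5 drawn at the edge and solid lines at the midpoint. Most of the 669 lower genes (402) lie at the upper left, as do 75 of the 208 higher genes, while SER3 and LYS2 lie at the lower right.

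Values within each strain give the same genes without a change of background. FLO1 had a log2 fold change of 1.49 in cyc8 snf2 over snf2 (both FY2083) and 7.40 in cyc8 over wt (both BY4741). SUC2 had 1.60 and 5.59 in the same contrasts, and RNR3 had 5.53 and 5.80. These contrasts share libraries with the main comparison, and their values were not tested against each other. HSP12 had 8.19 in cyc8 snf2 over snf2 and 6.23 in cyc8 over wt, PTR2 had 7.70 and 1.41, and CIT2 had -4.37 and -3.15. SER3 had 0.00 and 0.18, near 0 in both strains. One comparison shares no library with snf2 against cyc8, namely cyc8 snf2 against wt. Of the 669 genes lower in snf2 than in cyc8, 335 were higher in cyc8 snf2 than in wt (9.56% of all tested genes were), which is 50.1% of that set and 57.0% of all genes higher there. Of the 208 genes higher in snf2, 55 were lower in cyc8 snf2 than in wt (3.98% of all tested genes were), or 26.4% of them and 22.4% of the genes lower there. Calls in the same direction were also found. Of the 208 higher genes 34 (16.3%) were higher in cyc8 snf2 than in wt, beside 9.56% of all tested genes, and of the 669 lower genes 44 (6.58%) were lower there, beside 3.98%. Both comparisons set FY2083 against BY4741, so strain and label cannot be told apart in them.

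Sequence near the gene starts was scanned in 6152 windows of 300 bases before the start of each gene model, on both strands. Since the models include untranslated sequence, some windows lie well before the coding start. AGGGG was in 34.7% of windows of genes lower in snf2 and 16.3% of those of higher genes, beside 21.6% of all. ATTGTT was in 29.0% of lower and 30.8% of higher genes, beside 32.9% of all. CCCCNC was in 25.9% of lower and 12% of higher genes, beside 14.5% of all. Among higher genes CACGTG was in 9.62% and the Aft1 core TGCACCC in 5.77%, beside 4.39 and 1.46% of all windows. The TATA element TATAAA had nearly even shares, at 44.4% of lower, 46.6% of higher and 44.8% of all windows. The Gcn4 site TGACTC was in 65.3% of amino acid synthesis windows, and TGAAAC, bound by Ste12, in 88.2% of pheromone-induced windows, beside 7.98 and 19.6% of all. The matches describe letters and show no binding.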

How the data were processed

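The authors deposited 1 table of raw counts per gene for 12 RNA-seq libraries. The submitters' processing notes name STAR, featureCounts, deepTools and the build R64. Their versions, options and use of strand were not given in the sources used here. Of 7150 gene identifiers, 6441 matched a RefSeq locus tag of R64, and 4 emptied lines were not used. The 12 ribosomal RNA genes held 2 counts in all.

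Counts were tested with edgeR 4.0.16 in R 4.3.3 (quasi-likelihood F test, robust dispersions, TMM scaling, filterByExpr) on all 12 libraries with 1 mean per group, and p-values were Benjamini-Hochberg adjusted over the whole table. A gene was called at an adjusted p below 0.05 and at least 2-fold. CPM use TMM-scaled library sizes, and log2 fold changes are snf2 over cyc8, ± SE. On simulated counts (6100 genes) the test recovered 94% of genes changed by a log2 fold change of 1.5 and 99% of those changed by 3, with 0 false calls. Those counts were drawn with the fitted dispersions and 1 mean for all groups, apart from changed genes split evenly up and down. Unchanged genes had no difference at all, so few could reach a 2-fold call. A comparison with 76.3% of called genes lower was not simulated, and its rate of false calls was not measured.

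The comparison, the gene lists and the rule for named genes were chosen with earlier results of these data known, and the lists of retrograde, arginine and COS genes after the values were seen. Named genes were 15 called genes at each end of the fold changes (averaging 10 CPM or more, groups not overlapping), up to 5 members of each list and a fixed set; other list members are given by fold change only. Of the list members sought, 4 were not found under their symbols. Alternatives covered scaling, filters, thresholds, DESeq2 1.42.0, limma-voom (limma 3.58.1), a replicate block, protein-coding genes only, repeated sequence and each library left out.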

Additional observations from a re-analysis of the deposited data

Results flagged for a closer look

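Among the 30 genes with the highest and lowest fold changes, 1 group of 4 libraries held a value far from the rest, where chance flags about 1 group in 20. HIS3 had 0.128 CPM in 1 of the 4 cyc8 snf2 libraries and no count in the other 3, all of which lies at or under the limit that 3 counts allow.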

How the results depend on the processing

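With no minimum fold, more genes were higher than lower in snf2 (1525 higher and 1470 lower). Under each of the other alternatives run more genes were lower than higher. Upper-quartile scaling gave 325 higher and 583 lower genes, a minimum of 10 CPM in 2 libraries gave 103 higher and 523 lower, and a test against a 2-fold threshold gave 84 higher and 437 lower. The counts of higher and lower genes were 179 and 697 with RLE scaling, 178 and 702 with DESeq2, 208 and 657 with limma-voom and 192 and 677 in a fit of the 5 libraries alone. Leaving out 1 library at a time gave 162 to 211 higher genes, 636 to 712 lower genes and 3971 to 4243 genes within 2-fold. With a replicate block there were 206 higher, 674 lower and 4230 within 2-fold, and with the block on the 5 libraries alone 189, 694 and 4352. Same-numbered libraries did not deviate together (correlations of -0.0261 and -0.0715), so the numbers were not read as pairs. No named gene changed direction in a called value. Under upper-quartile scaling 6 named genes lost their call, and under a 2-fold test 32 did. The cause was not tested. With 2 snf2 libraries the spread in that group rests on 1 difference and on the other groups of the fit, and genes under about 1 CPM rest on few counts.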

Other observations

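Mitochondrially encoded genes were kept out of the comparison, and 19 of them had enough counts to be tested. Their median log2 fold change was -0.42 in snf2 over cyc8, none was called higher and 1, the endonuclease-like reading frame Q0255, was called lower, with 4.64 and 9.29 CPM in snf2 libraries, against 17.3, 16 and 20 CPM in cyc8 libraries (log2 fold change -1.36 ± 0.34, edgeR adjusted p = 0.00688).

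The COS family of subtelomeric membrane proteins, listed after the values were seen, was not uniform. COS12 had 23.0 and 24.5 CPM in snf2 libraries, against 7.09, 6.31 and 5.98 CPM in cyc8 libraries (log2 fold change 1.88 ± 0.31), and COS8 was higher as well, at 1.23. COS3 was called lower, at -1.85, a call that was lost without snf2 replicate 1, snf2 replicate 2 or cyc8 replicate 2. Of 10 COS genes tested 20% were higher and 10% lower, beside 3.38 and 10.9% of all tested genes. Of the 10, 5 lay within 2-fold, and 3 had at most 10% repeated words.

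ATG41, of autophagy, had 176 and 197 CPM in snf2 libraries, against 30.4, 19.2 and 15.7 CPM in cyc8 libraries (log2 fold change 3.11 ± 0.36). OAZ1, whose product controls polyamine synthesis, had 32.2 and 29.5 CPM in snf2 libraries, against 8.41, 6.27 and 8.10 CPM in cyc8 libraries (log2 fold change 2.03 ± 0.32).

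STE3 lay above both other mutant groups in the snf2 libraries, and its mean was 0.298 CPM in cyc8 snf2 and 3.16 CPM in wt.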
